A study of Sus scrofa with 21 samples.

Results

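A set of 8 genes of antibody-secreting plasma cells and of antibody export into the gut was looked up by symbol, and 7 of the 8 were found among the 18661 genes listed for the distal small intestine of 21 piglets. The 7 were JCHAIN, MZB1, DERL3, TNFRSF17, IRF4, PRDM1 and PIGR. The remaining gene, FKBP11, an isomerase of the endoplasmic reticulum, was not analysed here. The B-cell gene CD79A, which codes for a signalling chain of the B-cell receptor, served as the point of comparison. All animals were Danish Landrace/Yorkshire pigs followed from birth and killed when 24 to 25 days old. As controls, 10 piglets received a milk replacer (DI-9224, Arla Foods). The other 11, called the starch group, received that replacer mixed with wheat, the starch of the design text. The labels name neither sex, litter nor batch, and each piglet gave 1 RNA sample.

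Plasma cells are the end stage of the B-cell lineage and make antibody at high rates. In the gut most of them make immunoglobulin A, which the J chain (JCHAIN) joins into polymers. These polymers bind the polymeric immunoglobulin receptor (PIGR) at the base of epithelial cells, cross the cell with it and are released into the lumen. PIGR is therefore a gene of the epithelium, whereas the other 6 are genes of plasma cells or of their differentiation. Of these 6, IRF4 and PRDM1 are not confined to plasma cells, and PRDM1 is also known from the epithelium of the immature gut. Piglets are born with few antibody-secreting cells in the gut, and these accumulate over the first weeks of life.

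Each of the 21 samples had a total of 6719264 to 8610458 expected counts, an expected count being an estimate of the reads belonging to a gene that need not be whole. Levels are given as CPM, counts scaled to the library size and the trimmed mean of M values, unless FPKM (fragments scaled to transcript length and depth) is named. Some libraries stood apart. The mean log2 level of absorptive enterocyte genes, centred over the piglets, was -4.79 in control 5, -5.05 in control 8 and -6.27 in starch 3, against -0.34 or more in the other 18. CD79A reached 57.8 CPM (starch 9), 73.7 CPM (starch 10) and 14.7 CPM (control 1), against 6.41 CPM or less in the other 18. General epithelial genes were present throughout, with a summed level of 11 genes between 3709 and 9114 CPM. The relations of the 7 genes and the lists that turned on these piglets are given with and without them. Of 17 immunoglobulin constant-region genes looked up by symbol none could be matched, so antibody transcripts were not analysed here. In whole tissue, fewer cells of a type and less RNA per cell cannot be told apart.

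JCHAIN was the most abundant of the 7 genes per unit of length. Its median was 231 FPKM over the 21 piglets, above PIGR at 75.5 FPKM, and JCHAIN exceeded PIGR in 20 of 21 piglets (two-sided sign-flip permutation test on log2(FPKM + 0.1), p adjusted over 6 neighbouring pairs = 6e-05). PIGR in turn exceeded PRDM1, at 20.2 FPKM, in 19 of 21 piglets (adjusted permutation p = 0.00012). PRDM1, MZB1 at 13.7 FPKM and DERL3 at 11.3 FPKM were not separated beyond their spread. PRDM1 was above MZB1 in 12 piglets (adjusted permutation p = 0.154) and MZB1 above DERL3 in 15 (adjusted permutation p = 0.221). DERL3 was above TNFRSF17, at 3.46 FPKM, in all 21 piglets (adjusted permutation p = 6e-05). TNFRSF17 was above IRF4, the least abundant at 1.54 FPKM, in 19 of 21 (adjusted permutation p = 0.0042). The same 4 of 6 neighbouring pairs differed when a pseudocount of 1 was used and when CPM was divided by coding length.

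The files list more than 1 transcript for several of these genes, and the gene values are sums over them. MZB1, DERL3, TNFRSF17 and CD79A had a single listed transcript each. A transcript of 519 coding nucleotides held at least 99.1% of the JCHAIN count in every piglet. PIGR was spread over a pair of transcripts of 2277 coding nucleotides that carried equal counts in all 21 piglets, with a median of 42.7% of the gene each, and a shorter form of 2238 nucleotides that ranged from 0 to 54.0%. PRDM1 counts lay mostly on a form of 2487 coding nucleotides, with a median share of 76.1% and a range of 0 to 98.3%. IRF4 counts lay on a form of 1278 nucleotides in 17 piglets and on a pair of 1353 nucleotides with equal counts in 9. Equal counts show that the split between such transcripts is not measured, so only gene sums were compared.

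None of the 13127 genes tested passed the test of a diet difference (edgeR quasi-likelihood test, Benjamini-Hochberg adjusted p below 0.05, percent of genes called 0.0), and the 7 plasma cell and export genes each had an adjusted p of 0.9998. At an unadjusted p below 0.05 the edgeR test marked 174 of the 13127 genes, or 1.33%. DESeq2, run on 18630 genes without the low-count filter, called 0 genes after adjustment and marked 293 before it. PIGR was the only one of the 7 below an unadjusted 0.05. The fitted difference was above 0 for 5 of the 7 and below 0 for 2, with a median of 0.04 on the log2 scale, beside 51.1% of all genes above 0 and a median of 0.00. Without starch 9, starch 10 and control 1 it was above 0 for 2 and below 0 for 5, with a median of -0.07. The labels do not say whether piglets shared a litter or pen, so these p-values measure only the spread between these samples. The plot of levels by diet shows every piglet.

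**Figure D1:**
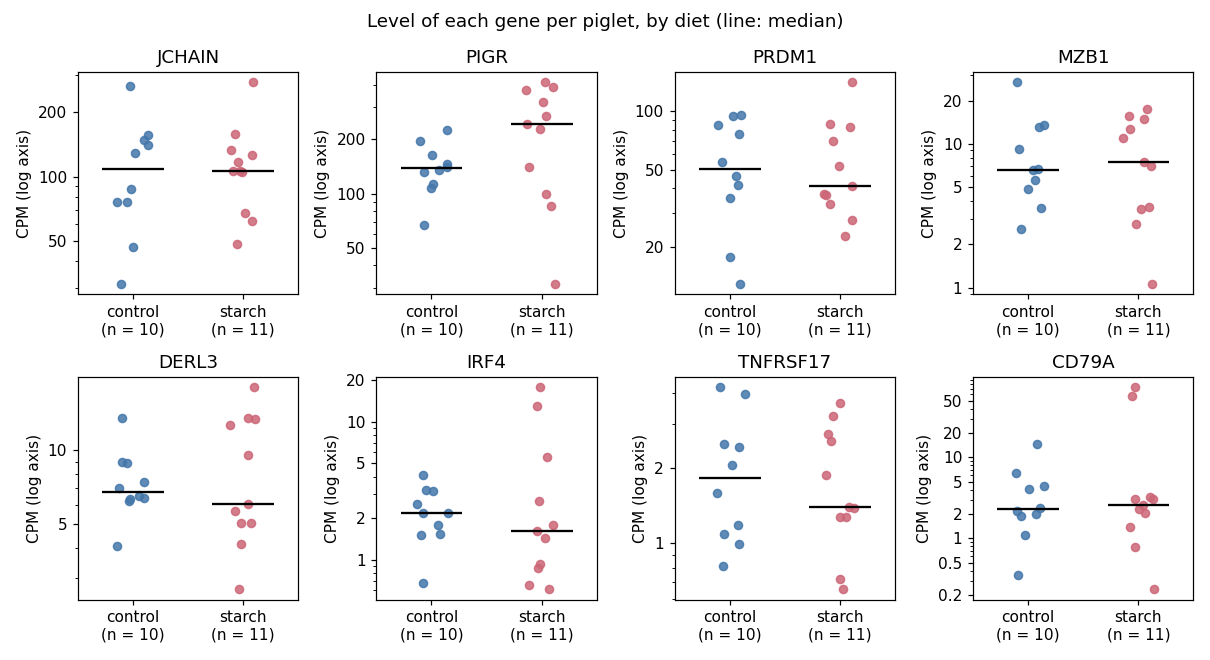
Level of each of the 7 genes and of CD79A in every piglet, in CPM on a log axis, for 10 control and 11 starch piglets; each point is 1 piglet and the bar is the group median. For PIGR 7 of 11 starch piglets lie above the highest control piglet (225 CPM), whereas for JCHAIN the medians of 108 and 106 CPM nearly coincide, and for CD79A starch 9 and starch 10 lie far above the rest.

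PIGR, the receptor that carries polymeric immunoglobulin A across the epithelium, ranged from 66.8 CPM in control 7 over a median of 138 to 225 CPM in control 3 on the control diet. On starch it ranged from 31.5 CPM in starch 5 over a median of 242 to 414 CPM in starch 4. In all, 7 of 11 starch piglets were above every control piglet, 1 was below every control piglet, and 8 were above the control median. The spread was wider on starch: the mean was 236 ± 132 CPM (SD, n = 11) against 143 ± 44.9 CPM (SD, n = 10). The difference was 0.73 on the log2 scale (SE 0.33, 95% interval 0.04 to 1.41), with an unadjusted p of 0.0394 in the edgeR test, a level that 0.404% of genes reached in the direction of starch, and an adjusted p of 0.9998. It was 0.42 on log2(FPKM + 0.5), with an unadjusted p of 0.273 in that diet test. Blocking on the replicate number kept 20 piglets and gave 0.40 (unadjusted diet-test p = 0.333). The same 20 piglets gave 0.63 without the block (unadjusted diet-test p = 0.0750). The difference was 0.61 to 0.85 when any 1 piglet was left out. The unadjusted edgeR p then ran from 0.0051 (without starch 5) to 0.0797 (without starch 4). It was 0.0966 by limma's voom and 0.0254 by DESeq2, so it fell on both sides of 0.05.

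JCHAIN, whose product joins immunoglobulin A units into the polymers that PIGR carries, had nearly equal levels on both diets. Control piglets ranged from 31.3 CPM (control 3) over a median of 108 to 267 CPM (control 8), and starch piglets from 48.4 CPM (starch 5) over 106 to 277 CPM (starch 4). Starch 4 lay above the highest control piglet, 2 control piglets lay below the lowest starch piglet, and the others overlapped. The difference was 0.04 on the log2 scale (SE 0.32, 95% interval -0.63 to 0.70, edgeR adjusted p = 0.9998). Within a diet the highest piglet was 8.53-fold above the lowest on control and 5.74-fold on starch.

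MZB1 and DERL3 belong to the endoplasmic reticulum of plasma cells: MZB1 is a chaperone-like partner of antibody assembly, and DERL3 takes part in removing misfolded proteins. MZB1 ranged from 2.55 CPM (control 3) over 6.62 to 26.9 CPM (control 8) on control and from 1.05 CPM (starch 5) over 7.47 to 17.5 CPM (starch 10) on starch. DERL3 ranged from 4.04 CPM (control 10) over 6.77 to 13.6 CPM (control 8) on control and from 2.69 CPM (starch 5) over 6.03 to 18.1 CPM (starch 11) on starch. Starch 5 was the lowest and control 8 among the highest piglets for both. The diets differed by -0.06 for MZB1 (SE 0.44, 95% interval -0.97 to 0.84) and by 0.21 for DERL3 (SE 0.29, 95% interval -0.39 to 0.81) on the log2 scale, each with an edgeR adjusted p of 0.9998.

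TNFRSF17, or BCMA, is the receptor through which plasma cells take up survival signals. It was near the lower limit of what this depth measures, with 5 to 27.8 expected counts per piglet, and 5 counts carry a 95% Poisson interval of 1.62 to 11.7 that covers counting error only. Its level ranged from 0.81 CPM (control 3) over 1.82 to 4.21 CPM (control 2) on control and from 0.65 CPM (starch 1) over 1.40 to 3.64 CPM (starch 4) on starch. The groups overlapped apart from 2 control piglets above every starch piglet and 2 starch piglets below every control piglet. The difference was -0.13 on the log2 scale (SE 0.34, 95% interval -0.83 to 0.57, edgeR adjusted p = 0.9998).

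IRF4 and PRDM1 are the transcription factors that drive B cells into the plasma cell state, and both are expressed at other stages or in other cells as well. IRF4 ranged from 0.68 CPM (control 6) over 2.19 to 4.10 CPM (control 8) on control and from 0.61 CPM (starch 8) over 1.62 to 17.7 CPM (starch 10) on starch. Starch 9, at 13.0 CPM, and starch 10 were far above the others, while the starch median was below the control median. The fitted difference of IRF4 was 0.91 on the log2 scale (SE 0.55, 95% interval -0.24 to 2.06, edgeR adjusted p = 0.9998), 0.35 without starch 10 and -0.29 without starch 9, starch 10 and control 1. PRDM1, which is also known from the epithelium of the immature gut, ranged from 12.9 CPM (control 8) over 50.6 to 94.9 CPM (control 3) on control and from 23.0 CPM (starch 11) over 41.1 to 140 CPM (starch 5) on starch. Starch 5 lay above every control piglet, control 5 (17.9 CPM) and control 8 lay below every starch piglet, and the others overlapped. The difference of PRDM1 was 0.04 on the log2 scale (SE 0.35, 95% interval -0.69 to 0.76, edgeR adjusted p = 0.9998).

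CD79A showed the widest range of the genes described. It ran from 0.36 CPM (control 10) over 2.30 to 14.7 CPM (control 1) on control and from 0.23 CPM (starch 5) over 2.60 to 73.7 CPM (starch 10) on starch. The medians were close, and only starch 9, at 57.8 CPM, and starch 10 lay above the highest control piglet. The fitted difference was 1.80 on the log2 scale (SE 0.86, 95% interval 0.03 to 3.57), and the edgeR test gave an unadjusted p of 0.0464 and an adjusted p of 0.9998. It was -0.40 without starch 9, starch 10 and control 1.

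Starch 5 and control 8 stood at or near an end of the range for several of these genes. For TNFRSF17 they ranked 10 and 8 of 21. Starch 5 had the lowest PIGR, MZB1, DERL3 and CD79A of all 21 piglets and the highest PRDM1. Control 8 had the highest MZB1 of all 21 piglets and the lowest PRDM1. In the same animal JCHAIN and DERL3 were the highest of the control group. Its absorptive enterocyte genes were among the 3 lowest, and their part in these values was not tested.

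The first relation asked was how the 7 genes followed CD79A across piglets. IRF4, DERL3 and MZB1 rose with CD79A, and the other 4 did not pass the test. Over 21 piglets Spearman's rho was 0.77 for IRF4, 0.75 for DERL3 and 0.73 for MZB1, with permutation p-values adjusted over all 13126 genes of 0.0166, 0.0201 and 0.0258. Pearson's r on log2 CPM was 0.83 for IRF4 (adjusted permutation p = 0.00279), 0.67 for DERL3 (adjusted permutation p = 0.0403) and 0.63 for MZB1 (adjusted permutation p = 0.104). The 3 of 7 genes called in the positive direction stand beside 1.14% of all genes tested, and 0 of 7 in the negative direction beside 0.0914%. JCHAIN had rho 0.56 (r 0.33, adjusted permutation p of rho = 0.191), TNFRSF17 0.32, PIGR 0.31 and PRDM1 -0.31, with adjusted permutation p-values of 0.441, 0.457 and 0.463 for the last 3.

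Starch 9 and starch 10 form a separate pair at the top of the CD79A range, so the relation was also taken over the other 19 piglets. Spearman's rho was then 0.69 for IRF4, 0.70 for DERL3 and 0.69 for MZB1, with adjusted permutation p-values of 0.0814, 0.0798 and 0.0817, and none of the 7 was called, beside 12 genes in all. Pearson's r over these 19 was 0.57 for IRF4, 0.61 for DERL3 and 0.65 for MZB1. Without the pair alone the 3 calls were lost, the r of IRF4 was lower than over all 21 piglets, and the r of MZB1 was not.

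With control 1 left out as well, the 3 genes were called again and JCHAIN joined them. Over these 18 piglets rho to CD79A was 0.78 for JCHAIN, 0.80 for MZB1, 0.75 for DERL3 and 0.65 for IRF4, with adjusted permutation p-values of 0.00988, 0.00889, 0.0133 and 0.0303. The 4 of 7 genes called stand beside 12.1% of all genes called positive in the same set. Leaving out control 5, control 8 and starch 3 kept rho between 0.74 and 0.76 for IRF4, MZB1 and DERL3. Their adjusted permutation p-values were 0.0387, 0.0453 and 0.0519. Of the 7 genes 2 were called positive there, beside 1.52% of all genes.

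Within each diet the groups were small and the order of the coefficients differed. Over 11 starch piglets rho to CD79A was 0.89 for MZB1 (adjusted permutation p = 0.0337), 0.83 for IRF4 (0.0621) and 0.81 for DERL3 (0.0700). The 1 of 7 genes called stands beside 2.37% of all genes called positive and 0.731% negative within starch. Over 10 control piglets it was 0.49, 0.76 and 0.58 for the same genes, with an adjusted permutation p of 0.974 for each, and no gene of the 13126 was called. The difference between the diets in these relations was not tested.

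**Figure D2:**
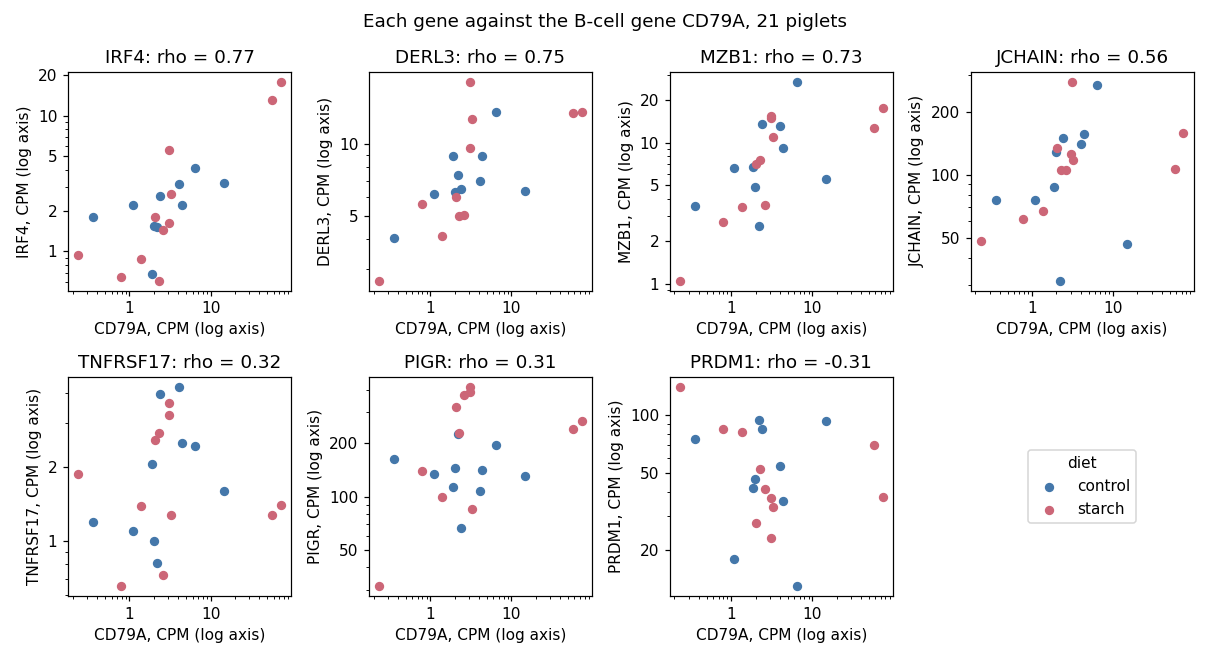
Level of each of the 7 genes against CD79A, both in CPM on log axes, with 1 point for each of the 21 piglets coloured by diet. IRF4, DERL3 and MZB1 climb with CD79A, and starch 9 and starch 10 are the pair of points farthest to the right, where JCHAIN is 106 and 158 CPM.

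The 3 piglets with the most CD79A held different places for the plasma cell genes. Starch 10 ranked 1 of 21 for CD79A and for IRF4, 2 for MZB1 and 3 for DERL3 and JCHAIN. Starch 9 ranked 2 for CD79A and IRF4, 4 for DERL3, 7 for MZB1, 11 for JCHAIN and 15 for TNFRSF17. Control 1 ranked 3 for CD79A and 20 for JCHAIN. Per unit of length, JCHAIN exceeded CD79A by a median of 61.7-fold over the 21 piglets. The ratio fell as low as 2.46 (starch 9), 2.86 (starch 10) and 4.24 (control 1) and was as high as 286 (control 10). This upper end is imprecise, since control 10 had 3 expected counts of CD79A (95% Poisson interval 0.62 to 8.77). Starch 5, with a ratio of 275, had 2.

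The genes whose levels followed CD79A most closely over the 21 piglets were CD37, HMCES, DYRK3, PTPRCAP and SH2D3C, with rho of 0.91, 0.89, 0.89, 0.88 and 0.88 (adjusted permutation p = 0.00547 for each). CD37 is a tetraspanin of leukocytes and PTPRCAP a partner of the leukocyte phosphatase CD45. None of these 5 is one of the 7 genes. All 5 had their highest level in starch 10 among starch piglets.

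JCHAIN was taken as a second reference, since its product is the cargo of PIGR. MZB1 had the highest rho to JCHAIN of all tested genes with a symbol: rho was 0.86 and r was 0.81 over 21 piglets, with adjusted permutation p-values of 0.0202 and 0.0175. Of the other 6 genes 1 was thus called, beside 0.13% of all genes in the positive direction, and 0 in the negative direction beside 0.0152%. The rho of MZB1 was 0.87 within the control group, 0.86 within the starch group and 0.83 without the 2 piglets farthest from the JCHAIN median (control 3 and starch 4), with adjusted permutation p-values of 0.374, 0.118 and 0.0656. By rho the call was lost in each of these smaller sets. By Pearson's r without the 2 farthest piglets MZB1 was still called (r 0.81, adjusted permutation p = 0.0219), and PRDM1 was called negative (r -0.66, adjusted permutation p = 0.0499), beside 1.46% of genes positive and 2.35% negative. Per unit of length the ratio of MZB1 to JCHAIN lay between 0.0187 and 0.106, with a median of 0.0658.

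The other plasma cell genes had lower coefficients with JCHAIN, and none passed the test. The rho to JCHAIN was 0.59 for IRF4, 0.59 for DERL3 and 0.58 for TNFRSF17, with adjusted permutation p-values of 0.108, 0.109 and 0.108. PRDM1 had a negative rho of -0.64 to JCHAIN (r -0.66, adjusted permutation p of rho = 0.097), and PIGR had 0.33 (0.317). After MZB1 the genes most like JCHAIN were BANP (rho 0.81), COX7A1 (0.81), SNRPN (0.78) and STAP1 (0.75), of which BANP and COX7A1 passed with an adjusted permutation p of 0.0263. STAP1 is an adaptor of B-cell signalling, and COX7A1 a muscle form of a cytochrome c oxidase subunit. Macrophage and dendritic cell genes had a median rho of 0.58 to JCHAIN, with 10 of 10 positive and none called, C1QC at 0.66 and CD163 at 0.64 among them. Their median was 0.65 without control 5, control 8 and starch 3. Their part in the relations of the plasma cell genes to JCHAIN was not tested.

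**Figure D3:**
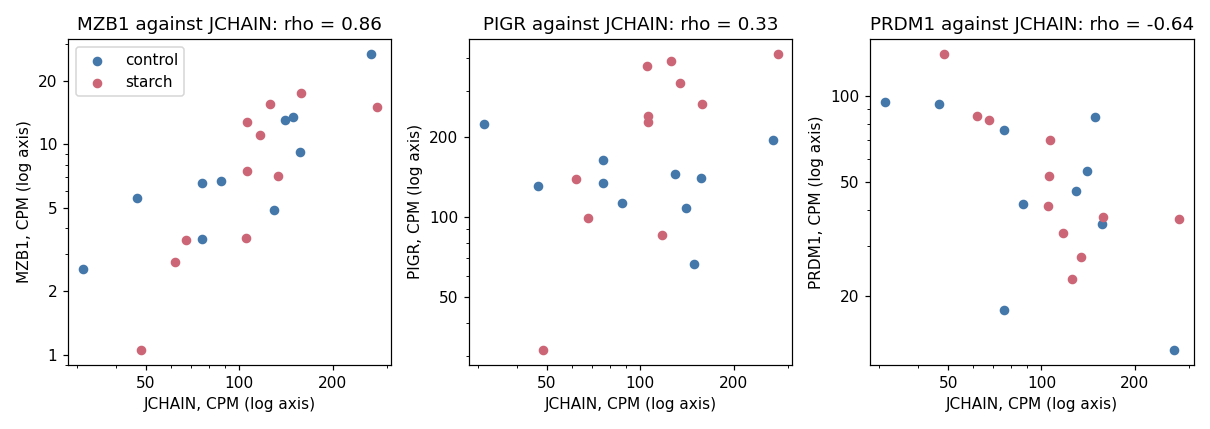
Level of MZB1, PIGR and PRDM1 against JCHAIN, in CPM on log axes, with 1 point for each of the 21 piglets coloured by diet. MZB1 lies along a rising band (rho 0.86), PIGR is scattered (rho 0.33), and PRDM1 is lower where JCHAIN is higher (rho -0.64).

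PIGR was then compared with the genes of the cells whose product it carries. No gene of the 13126 was called against PIGR in either direction (0.0% each), and rho for the other 6 genes lay between -0.42 (PRDM1) and 0.33 (JCHAIN), with adjusted permutation p-values of 0.473 and 0.605 at these ends. Over starch piglets the rho of JCHAIN to PIGR was 0.69 (permutation p = 0.0225, adjusted 0.690), and over control piglets it was -0.21. The difference between these was not tested. Without the 2 piglets farthest from the PIGR median, starch 5 and starch 4, rho of JCHAIN to PIGR was 0.13. Per unit of length the ratio of PIGR to JCHAIN ran from 0.0937 to 1.49, with a median of 0.349.

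The genes most like PIGR were CTC1 (rho 0.82, adjusted permutation p = 0.0656), CENPQ (0.77), ODF2L (0.76), C5 (0.75) and CENPF (0.74), and none passed. CENPQ and CENPF are proteins of the centromere and kinetochore, and C5 is a complement component. General epithelial genes had a median rho of 0.11 to PIGR, with 7 of 11 positive, and absorptive enterocyte genes a median of -0.25, with 1 of 11 positive, beside 0.02 over all genes. Without control 5, control 8 and starch 3, 1166 genes were called against PIGR (2.99% positive and 5.89% negative), PRDM1 among them with rho -0.67 (adjusted permutation p = 0.0422).

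PRDM1 ran opposite to the secretory plasma cell genes. It was taken as a reference after its values had been seen. The rho to PRDM1 was negative for all 6 others, and JCHAIN at -0.64 and MZB1 at -0.62 passed with adjusted permutation p-values of 0.0134 and 0.0162. DERL3 had -0.51 (adjusted permutation p = 0.0575), PIGR -0.42, IRF4 -0.32 and TNFRSF17 -0.23. PRDM1 was unusual in how much of the transcriptome varied with it: 17.0% of all genes were called positive and 15.5% negative, so 2 of 6 negative calls are to be read against that background. Without control 8 and starch 5, the piglets farthest from the PRDM1 median, JCHAIN had -0.53 and MZB1 -0.49, and neither was called, beside 5.64% of genes. Without control 5, control 8 and starch 3, JCHAIN had -0.72, MZB1 -0.65 and PIGR -0.67, and all 3 were called (adjusted permutation p = 0.0214, 0.0436 and 0.0351), beside 4.27% of genes. The closest genes were PIWIL2, ARID3A, PKLR, PLAGL2 and MFSD12, with rho of 0.94 to 0.95. ARID3A is a transcription factor and PKLR a pyruvate kinase.

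Marker genes of other cells moved with PRDM1 too. Of the macrophage and dendritic cell genes, 8 of 10 tested were called negative against PRDM1 (median rho -0.80), among them C1QC at -0.81 and CD163 at -0.81. All 8 smooth muscle genes were called negative (median -0.68), as were 5 of 9 fibroblast and endothelial genes (median -0.53), DCN and COL1A2 included. Absorptive enterocyte genes had a median rho of 0.38 with 5 of 11 called positive, APOA4 at 0.65 among them, and none called negative. General epithelial genes had a median of -0.05 with 3 of 11 called negative, and T-cell genes -0.31 with 2 of 9. Genes that induce immunoglobulin A or keep plasma cells alive had -0.53 with 7 of 13 called negative. None of these last 3 lists had a positive call. The median over all genes was -0.02, with 17.0% called positive and 15.5% negative. Without control 5, control 8 and starch 3 the negative calls were 7 of 10 macrophage and dendritic cell genes, 1 of 8 smooth muscle genes and 3 of 9 fibroblast and endothelial genes. Of 11 absorptive genes 2 were called positive and 1 negative in that set. Over all genes 7.63% were called positive and 4.27% negative there. What part tissue make-up has in the negative relation of PRDM1 to JCHAIN and MZB1 was not tested.

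**Figure D4:**
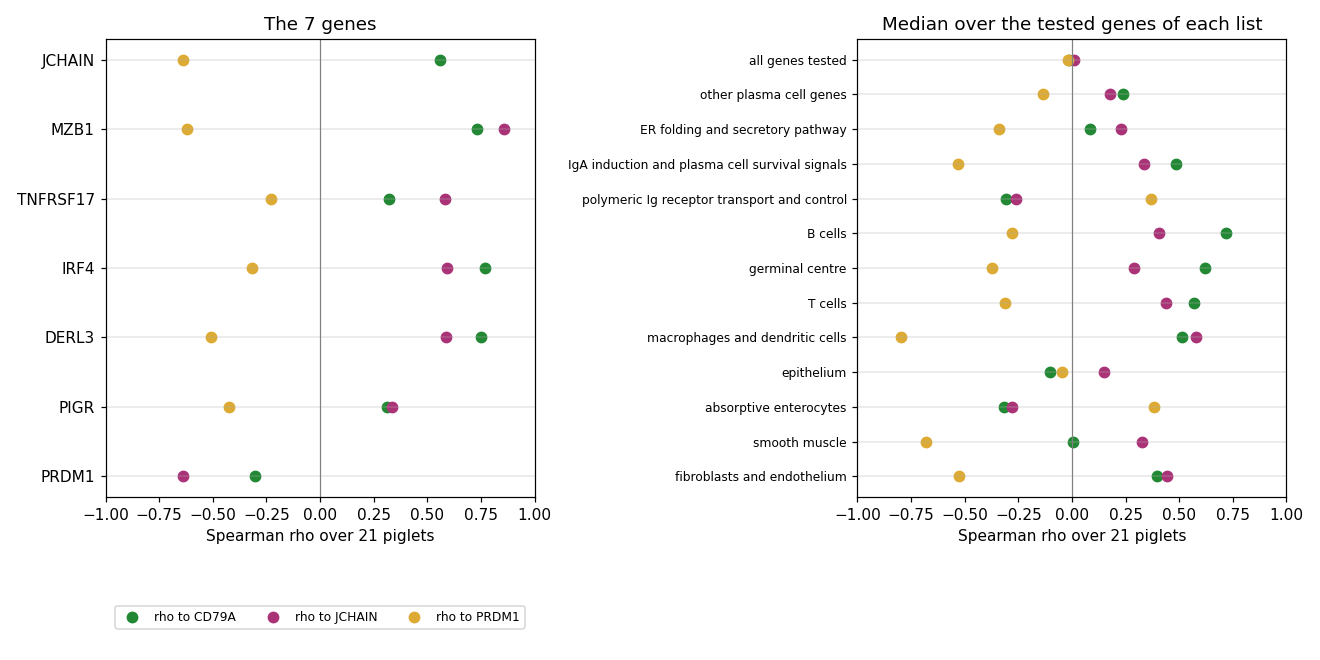
Spearman's rho over 21 piglets to CD79A, JCHAIN and PRDM1 for each of the 7 genes (left) and as the median over the tested genes of each list (right), on an axis from -1 to 1. PRDM1 has negative coefficients with all 6 other genes, B-cell genes have the highest list median to CD79A (0.72), and macrophage and dendritic cell genes the most negative to PRDM1 (-0.80).

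Wider lists placed the 7 genes among their pathways. Of 16 other plasma cell genes 13 were tested: starch piglets had the higher fitted level of 7 and the lower of 6, with a median log2 difference of 0.01, and none had an unadjusted p below 0.05. POU2AF1, a co-activator of the B lineage, was 6.54 ± 6.96 CPM on control and 19.6 ± 36.3 CPM on starch (unadjusted edgeR p = 0.0701). The medians of POU2AF1 were 4.43 and 3.46 CPM, and starch 10 reached 106 CPM. Without starch 9, starch 10 and control 1 its log2 difference was -0.37, against 1.60 with them. POU2AF1 followed CD79A with rho 0.87 (adjusted permutation p = 0.00547) and was the only one of the 13 called against CD79A. Leaving out starch 9 and starch 10 left none of the 13 called. SDC1, the plasma cell and epithelial syndecan, had rho of -0.24 to CD79A and 0.27 to JCHAIN. The median rho of the 13 genes was 0.24 to CD79A and 0.18 to JCHAIN, beside -0.01 and 0.01 over all genes. T-cell genes had higher medians of 0.57 and 0.44, macrophage and dendritic cell genes 0.51 and 0.58, and fibroblast and endothelial genes 0.39 and 0.44. Smooth muscle genes had 0.00 and 0.33. General epithelial genes, at -0.10 and 0.15, and absorptive enterocyte genes, at -0.32 and -0.28, were lower.

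Genes of protein folding and secretion in the endoplasmic reticulum were not called against JCHAIN or between the diets. Of 32, 30 were tested, with fitted differences above 0 for 13 and below 0 for 17, a median log2 difference of -0.01 and none below an unadjusted p of 0.05. HSPA5, the main luminal chaperone, was 943 ± 453 CPM on control and 803 ± 271 CPM on starch. In all, 20 of the 30 had a positive rho to JCHAIN, with a median of 0.23, and none was called. The median to JCHAIN was 0.01 over all genes, 0.15 for general epithelial genes, 0.33 for smooth muscle genes and 0.44 for T-cell genes. The highest were ERN1, a sensor of unfolded protein, at 0.58, PRDX4 at 0.54 and SEC61B, a subunit of the translocon, at 0.49.

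Genes that induce immunoglobulin A or keep plasma cells alive were compared in the same way. Of 20, 13 were tested, and none had an unadjusted p below 0.05. On starch 10 were higher and 3 lower (median 0.20 on the log2 scale), beside 51.1% of all genes above 0. The split was 8 higher and 5 lower (median 0.07) without starch 9, starch 10 and control 1. Among them 11 of 13 had a positive rho to CD79A, with a median of 0.48, beside 0.57 for T-cell genes and 0.51 for macrophage and dendritic cell genes. ITGB7, the gut-homing integrin chain, was the only 1 of the 13 called (rho 0.75, adjusted permutation p = 0.0172). CXCL12, a chemokine that retains plasma cells, had rho of 0.66 to CD79A (adjusted permutation p = 0.0836) and 0.43 to JCHAIN.

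Genes that transport or control PIGR showed no common direction. Of 15, 14 were tested, with fitted differences above 0 for 6 and below 0 for 8 (median -0.04), and none had an unadjusted p below 0.05. RELA, the NF-kB subunit, was 84.8 ± 11.2 CPM on control and 92.2 ± 12.4 CPM on starch, and IRF1 was 127 ± 66.8 and 144 ± 77.2 CPM. The median rho of the 14 to PIGR was -0.04, with 6 of 14 positive. FCGRT, the receptor that carries immunoglobulin G in the newborn, was 406 ± 104 CPM on control and 400 ± 71.6 CPM on starch, and its rho to JCHAIN was 0.00.

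B-cell, germinal centre and T-cell genes were followed for comparison. All 12 tested B-cell genes had a fitted difference above 0 (median 0.88), 3 with an unadjusted p below 0.05, and none was called after adjustment. Without starch 9, starch 10 and control 1 only 1 of the 12 was above 0, and the median was -0.13. The summed level of the 15 B-cell genes found, tested or not, lay between 102 and 971 CPM on starch and between 108 and 289 CPM on control. Its median was 156 CPM on starch and 162 CPM on control. Of the 11 tested genes other than CD79A, 6 were called positive against CD79A, beside 1.14% of all genes. None of the 12 tested was called against JCHAIN, beside 0.13%. Leaving out starch 9 and starch 10 left 1 of the 11 called against CD79A, beside 0.0914% of all genes. With control 1 left out as well, 6 of the 11 were called, beside 12.1%. All 4 tested germinal centre genes had a fitted difference above 0 (median 0.67), and 2 of 4 did without the same 3 piglets (median -0.14). The median summed level of the 7 germinal centre genes found, tested or not, was 39.5 CPM on control and 29.2 CPM on starch. MEF2B had rho of 0.79 to CD79A (adjusted permutation p = 0.00625). None of the 4 tested germinal centre genes was called against CD79A when starch 9 and starch 10 were left out. Of 9 T-cell genes 8 were lower on starch (median -0.09), and CD2 had rho of 0.63 to JCHAIN (adjusted permutation p = 0.0988).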

How the data were processed

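Intestinal RNA of 21 piglets (10 control, 11 starch) was sequenced, and the authors deposited 1 transcript table per piglet. Per the file headers, the tables give an expected count, which was not normalised, and an FPKM value, which the authors had corrected for transcript length and sequencing depth. HISAT and DESeq2 are named in the submitters' processing notes without version or role. The counting program and the genome build were not given in the sources used here. A transcript absent from a piglet's table was taken as 0.

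Expected counts were summed per gene and rounded. Of 18661 genes, 14276 (76.5%) had a symbol through their Ensembl identifier. Genes passing edgeR's filterByExpr (minimum count 10, total 15), 13127 in all, were compared between diets by edgeR 4.0.16's quasi-likelihood test with Benjamini-Hochberg adjustment over all of them and a threshold of 0.05. All 7 genes described and CD79A passed this filter. Relations were Spearman's rho and Pearson's r on log2 CPM (prior count 2) with 100000 two-sided permutations for every tested gene, adjusted over all of them. The smallest p these can give is 1e-05. Levels of different genes were compared only as FPKM, with a pseudocount of 0.1.

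The genes named were the members, CD79A, the 5 with the highest rho to each reference gene, and in each list up to 4 with the smallest diet p and up to 3 with the highest rho to JCHAIN. Members and lists were chosen with earlier results of these data known. Alternatives were DESeq2 1.42.0, limma 3.58.1, other scalings and filters, covariates and leaving piglets out. PRDM1 as a reference, the relation to the total count and the list values without some piglets were added after the data had been seen. Both statistics were tested on simulated data.

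The replicate numbers are shared between the diets. Same-numbered piglets had correlations of -0.54 to 0.56 over 10 pairs, and 2 of 10 control piglets correlated best with their own number, so the numbers were not taken to pair animals.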

Additional observations from a re-analysis of the deposited data

Results flagged for a closer look

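Dixon's test at 95% was run on 8 control groups, 1 for each of the 7 genes and CD79A. In 4 of the groups a piglet lay far from the others. Chance marks about 1 in 20 groups where values are normally distributed. The test used untransformed CPM, whose distribution was not checked, so an excess over chance cannot be read from the 4 groups. For JCHAIN the gap was 0.467 of the range, only just beyond the critical value. The 4 are not independent, since 3 of them concern control 8. That piglet had 267 CPM of JCHAIN, 26.9 CPM of MZB1 and 13.6 CPM of DERL3, each the highest of the 10 control piglets. It is also 1 of the 3 piglets with low absorptive enterocyte genes (-5.05). Control 1 had 14.7 CPM of CD79A, against a control median of 2.30 CPM. The starch group holds more than 10 piglets and was not examined in this way.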

How the results depend on the processing

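No alternative gave a diet effect on any gene after adjustment, and PIGR kept its direction with 0.40 to 0.87 on the log2 scale. The fitted diet differences of the other 6 genes and CD79A were near 0 or rested on few piglets, and each changed sign somewhere. The cause was not tested. With limma's voom the difference was 0.095 for MZB1, -0.055 for IRF4, -0.29 for PRDM1 and -0.0033 for DERL3. With DESeq2 it was -0.33 for CD79A. With a B-cell score that contains CD79A as a covariate it was -0.027 for JCHAIN, -0.13 for IRF4 and -0.13 for CD79A. Without starch 9, starch 10 and control 1 it was -0.10 for JCHAIN, -0.29 for IRF4, -0.0019 for DERL3 and -0.40 for CD79A. Without control 5, control 8 and starch 3 it was 0.24 for MZB1 and -0.14 for PRDM1. With the replicate number as a block DERL3 had -0.071, no gene was called and 188 had an unadjusted p below 0.05, against 174 without it. No other call changed with the block. Leaving out 1 piglet at a time gave -0.17 to 0.26 for JCHAIN, -0.22 to 0.29 for MZB1, -0.27 to 0.037 for TNFRSF17, -0.19 to 0.16 for PRDM1, and 0.94 to 2.34 for CD79A, the lowest without starch 10.

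Against CD79A, 3 of the 7 genes were called in all 21 piglets, beside 1.14% of all genes in the positive direction. Within starch 1 was called, beside 2.37% of all genes, and within control 0. Without the 2 farthest piglets 0 were called by either coefficient. Against JCHAIN 1 was called in all, and 0 on log2(FPKM + 0.1), within control, within starch, without starch 9, starch 10 and control 1, and without the 2 farthest. Against PRDM1 2 were called negative, beside 15.5% of all genes. The count was 0 within either diet and without the 2 farthest (5.64% of all genes by rho). By Pearson's r over all 21 piglets it was 3, beside 18.8%. It was also 3 without control 5, control 8 and starch 3, beside 4.27%, and without starch 9, starch 10 and control 1, beside 14.3%. Within starch 1.46% of all genes were called negative against PRDM1. Within the control group rho was -0.10 for PIGR with CD79A, 0.042 for PRDM1 with CD79A, -0.21 for PIGR with JCHAIN, -0.48 for MZB1 with PIGR and -0.20 for IRF4 with PIGR. TNFRSF17 with PIGR had 0.010 on log2(FPKM + 0.1), 0.043 centred on the diets, 0.42 within starch and 0.032 without starch 9, starch 10 and control 1. Without the 2 piglets farthest from the reference, IRF4 with PIGR had -0.042 and CD79A with PRDM1 an r of 0.022. Of 661 alternative values, 563 kept their direction and their side of the threshold, or moved by less than the set limit. That total counts pairs of reference genes in both directions, and no diet value in it came near the threshold. It therefore does not measure how stable the calls are.

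The depth limits TNFRSF17, IRF4 and CD79A most, with as few as 5, 4 and 2 expected counts in a piglet. The rho of the 7 genes with the total count ran from -0.52 (TNFRSF17, adjusted permutation p = 0.13) to 0.20. None of the 7 was called, whereas 310 of the 13127 genes tested were.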
